A study of Mus musculus with 6 samples.

Results

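Merged H3K56ac peaks were examined at 8 genes that encode oncofetal RNA-binding and chromatin proteins: Lin28a, Lin28b, Igf2bp1, Igf2bp2, Igf2bp3, Trim71, Hmga1 and Hmga2. A peak belonged to a gene if any of its bases lay in the gene body or within 30 kb on either side, and 29 of the 11106 peaks of the set (0.261%) did. H3K56ac, acetylated lysine 56 of histone H3, had been profiled by ChIP-seq in V6.5 mouse embryonic stem cells (mESCs) grown undifferentiated on feeder cells with LIF. All cells were infected with lentivirus for shRNA expression: a scramble hairpin in the control group (Scramble), and a hairpin that targets Sirt6 in the knockdown group (Sirt6 KD). There were 2 H3K56ac and 1 input library in each group, and the study's methods call the 2 biological replicates. The analysed file was 1 set of peak positions made over the libraries, without a score, a height or a group. Which cells had a peak, and how strong it was, can therefore not be told here, neither the knockdown nor its effect could be checked, and every value describes positions in 1 set with no replicates. The study reports more peaks in each Sirt6 KD library than in each Scramble library. The set is therefore not a map of the control cells alone.

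LIN28A and LIN28B bind the precursors of let-7 microRNAs and block their maturation. Mature let-7 in turn represses Lin28a, Lin28b, Trim71, Hmga2 and the Igf2bp genes, so that blocker and targets form a loop that is set to high LIN28 and low let-7 in early embryos and turned over as tissues mature. TRIM71 is a ubiquitin ligase and mRNA repressor of stem cells, the IGF2BP proteins bind and stabilize mRNAs such as that of Igf2, and HMGA1 and HMGA2 bend AT-rich DNA. Many of these genes are silent in adult tissues and return in tumours, hence the name oncofetal. SIRT6 removes acetyl groups from H3K56, and in pancreatic tumour cells it is known to do so at Lin28b.

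Marker genes of mESCs and of feeder fibroblasts were counted. The lists were chosen with earlier results of these data known, so the counts describe the set and do not test its cell type. All 8 mESC markers (Pou5f1, Sox2, Nanog, Klf4, Esrrb, Zfp42, Tdgf1 and Dppa5a) carried at least 1 base of a peak no farther than 1 kb from a transcription start site (TSS), against 35.7% of protein-coding genes, and Sox2, a pluripotency factor, carried the widest at 9909 bp. None of 12 fibroblast markers, which would mark the feeder cells, had one, and the sole peak in their windows was 279 bp wide, near Twist2. With the peak midpoint required within 1 kb of a TSS, 5 of the 8 mESC markers had such a peak, against 33.9% of protein-coding genes. None of the 12 fibroblast markers did.

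Peaks lay at all 8 genes, but in very unequal number. Trim71 had 10 peaks, Hmga1 5, Igf2bp1 4 and Lin28a 3. Lin28b, Igf2bp2 and Igf2bp3 had 2 each, and Hmga2 had 1. Among 21938 protein-coding genes, 56.8% had at least 1 peak in a window drawn the same way, and the median was 1 peak. The 8 genes had a median of 2.50 peaks. Long genes have long windows, so counts were also set against length: the 8 windows together held 2.72 peaks per 100 kb, compared with 1.11 for the windows of all protein-coding genes together. By gene the density ran from 0.571 per 100 kb for Hmga2 to 8.53 for Trim71. Hmga1 followed Trim71 with 7.44, then Lin28a with 3.97, Igf2bp1 with 3.68, Igf2bp2 with 1.22, Lin28b with 1.18 and Igf2bp3 with 1.05. The median over protein-coding genes was 0.876 per 100 kb. The share of genes with a lower density was 99.3% for Trim71, 98.4% for Hmga1, 89.1% for Lin28a and 88.0% for Igf2bp1. For Igf2bp2, Lin28b, Igf2bp3 and Hmga2 it was 57.4, 56.4, 53.4 and 45.8%, near the middle of all genes.

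**Figure D1:**
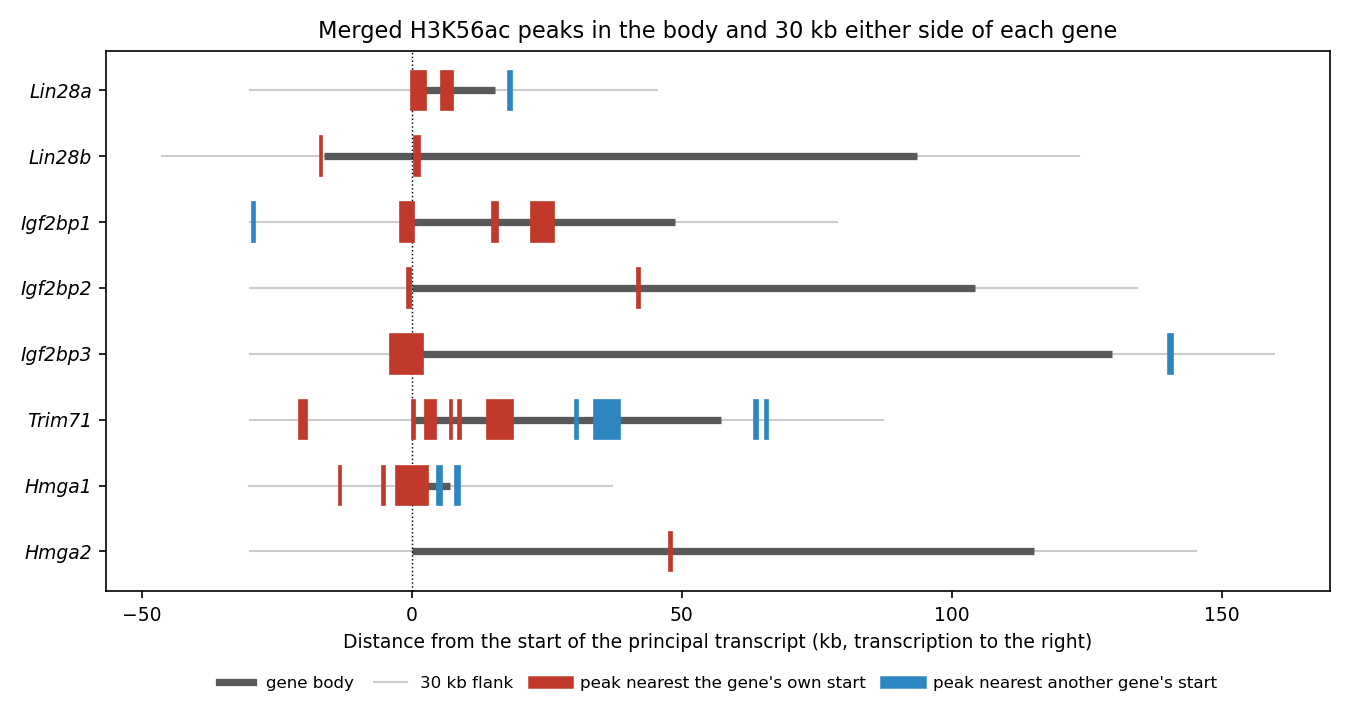
Map of the 8 genes with the transcription start of the principal transcript at 0 and distance in kb on the x axis. Dark bars are gene bodies, thin lines the 30 kb flanks, red blocks peaks whose nearest protein-coding start is the gene's own (20 of 29) and blue blocks the other 9, and Trim71 shows 10 blocks against 1 at Hmga2.

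**Figure D2:**
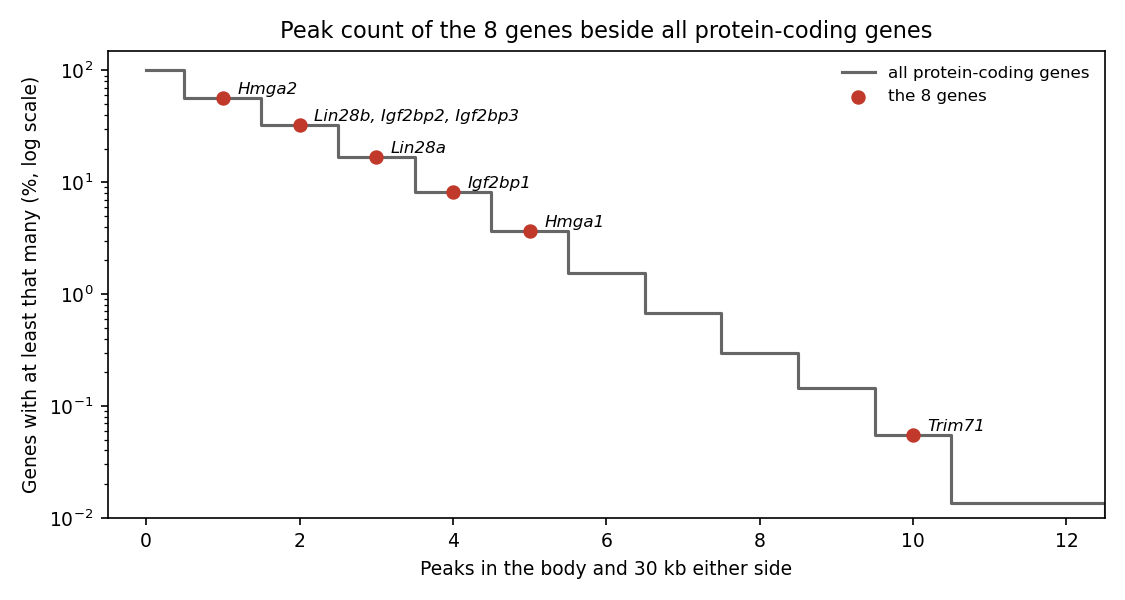
Number of peaks in the body and 30 kb either side (x axis) against the percentage of 21938 protein-coding genes with at least that many (y axis, log scale), drawn up to 12 peaks. Red points are the 8 genes, from Hmga2 with 1 peak, a count reached by 56.8% of genes, to Trim71 with 10, reached by 0.0547%.

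The nearest start was not always that of the gene itself. Of the 29 peaks, 20 were nearest to a TSS of one of the 8 genes and 9 to that of a neighbour. The neighbours were Dhdds beside Lin28a, Snf8 beside Igf2bp1, Malsu1 beside Igf2bp3, AI413582 beside Hmga1, and Ccr4 and C130032M10Rik beside Trim71. Of these 9 peaks, 4 lay within 1 kb of the neighbour's TSS: 164 bp from Dhdds, which encodes an enzyme of dolichol synthesis, 305 bp from Snf8, an ESCRT subunit, 363 bp from Malsu1, a mitochondrial ribosome factor, and 10 bp from AI413582. With 100 kb on either side Lin28a rose from 3 to 9 peaks, whereas Lin28b stayed at 2 and Hmga2 at 1.

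Widths ranged from 281 bp at Hmga1 to 6091 bp at Igf2bp3. The median at the 8 genes was 792.0 bp, with a 95% interval of 571 to 1961 bp from the binomial order of the 29 values, and the median of all peaks, 913.5 bp, lay inside it. There were 5 peaks of at least 3 kb (17.2%, Wilson interval 7.60 to 34.5%), against 6.83% of all peaks, and these 5 held 52.6% of the summed width of 49687 bp. They were the promoter peaks of Igf2bp3 (6091 bp) and Hmga1 (5970 bp), a pair in intron 1 of Trim71 (4876 and 4805 bp) and 1 in intron 2 of Igf2bp1 (4388 bp). Intervals on shares cover the number of peaks only, because the file gives no read depth. All intervals here treat the 29 peaks as separate draws, although they cluster in 8 chosen windows and 10 lie in that of Trim71.

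**Figure D3:**
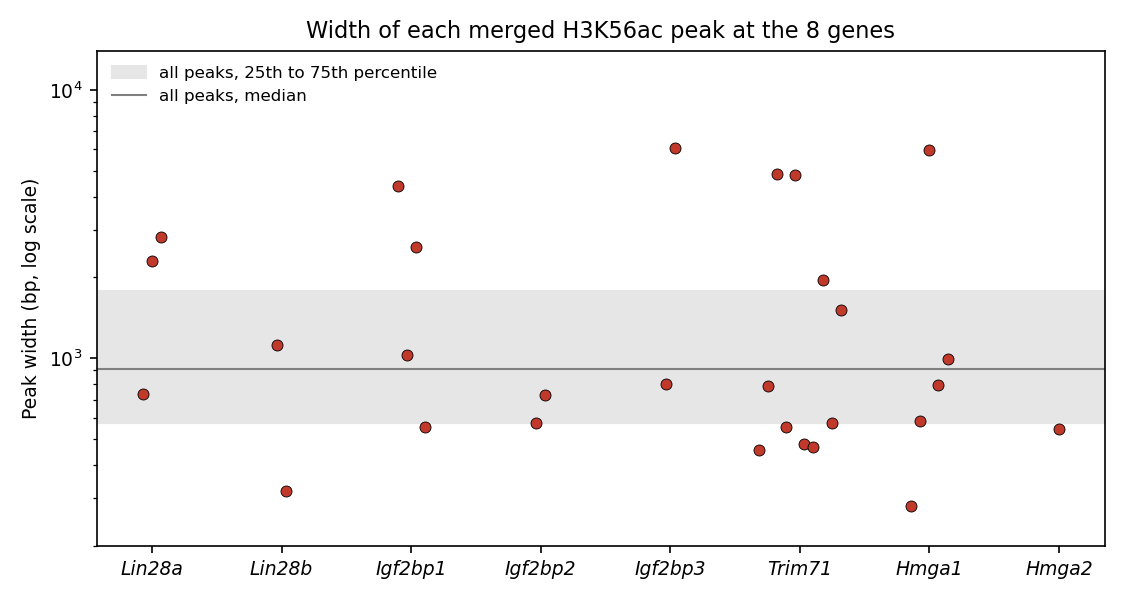
Width in bp (y axis, log scale) of each of the 29 peaks, as points, by gene (x axis). The grey band and line give the 25th to 75th percentile (572.0 to 1785 bp) and the median (913.5 bp) of all 11106 peaks, and 9 of the 29 peaks lie above the band.

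A promoter peak, with its midpoint within 1 kb of any annotated TSS of the gene, was present at 7 of the 8 genes, Hmga2 being the exception. The share over all protein-coding genes was 33.9%, but it depended on promoter sequence: 57.6% where the observed/expected CpG ratio around the 5′ end exceeded 0.6 and 13.7% where it did not. The ratio exceeded 0.6 at 7 of the 8 genes, all but Lin28a, so that 57.6% is the closer background. At Lin28b both the ratio and the promoter peak refer to the start of noncoding transcripts. Around its coding start the ratio was 0.438, and no midpoint lay within 1 kb of a coding start. A stricter reading, the start of the principal transcript lying under a peak, held for 4 genes (Lin28a, Igf2bp1, Igf2bp3 and Hmga1), with 20.0% over all protein-coding genes and 34.8% over those with CpG-rich promoters. At Lin28b, Igf2bp2 and Trim71 the nearest peak lay beside the start. A peak overlapped the body of each of the 8 genes, compared with 36.2% of protein-coding genes. That share covers genes of all lengths, whereas 4 of the 8 are at least 100 kb long, and a longer body has more room for a peak.

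**Figure D4:**
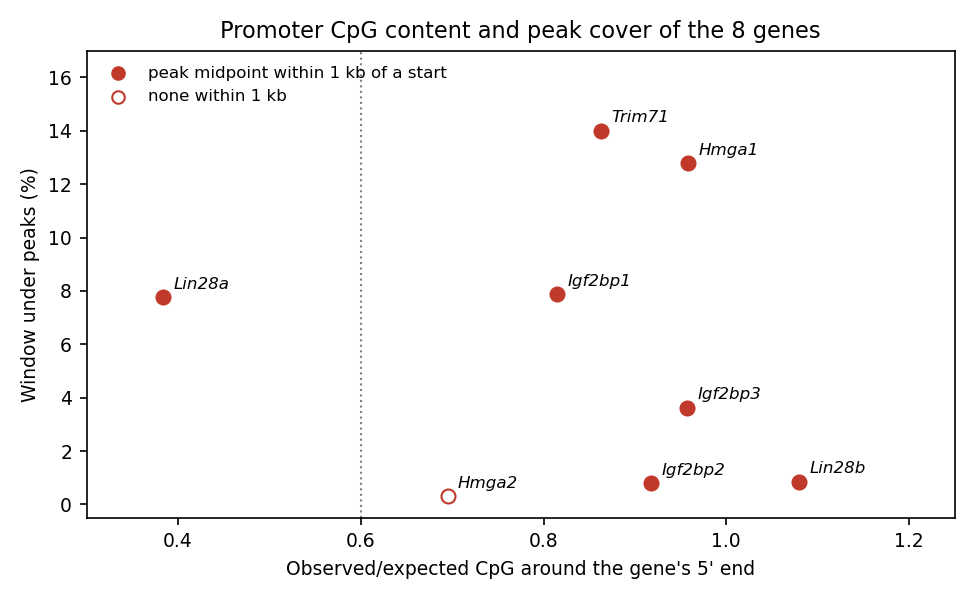
Observed/expected CpG ratio in the 500 bp before and after the 5′ end (x axis) against the percentage of the window under peaks (y axis) for the 8 genes. Filled points have a peak midpoint within 1 kb of a start, the open point (Hmga2) has none, the dotted line marks a ratio of 0.6, and Lin28a lies alone to its left.

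Lin28a and Lin28b, the let-7 blockers, carried different patterns. Lin28a (chr4:134003330-134018841, minus strand, 15512 bp) had 7.77% of its window under peaks, and 94.1% of protein-coding genes had less. Its widest peak, chr4:134016107-134018930 (2824 bp), covered the start of the principal transcript Lin28a-201 from 89 bp upstream and ran on into intron 2. The second, chr4:134011093-134013402 (2310 bp), lay in intron 2 with its midpoint 139 bp downstream of the start of the shorter coding transcript Lin28a-202. The last, chr4:134000190-134000925 (736 bp), was the one at Dhdds. The CpG ratio of the Lin28a promoter was 0.384, the lowest of the 8.

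At Lin28b (chr10:45376620-45486395, minus strand, 109776 bp) 0.849% of the window was under peaks, and 54.3% of protein-coding genes had less. The wider peak, chr10:45468582-45469704 (1123 bp), began 497 bp downstream of the coding start at 45470201 and had its midpoint in exon 2, 1058 bp downstream. The other, chr10:45486771-45487089, was 319 bp wide, wider than 8.86% of all peaks, and lay 535 bp upstream of the 5′ end of the gene. That 5′ end belongs to noncoding transcripts that start 16194 bp upstream of the coding one, and its CpG ratio was 1.08, against 0.438 around the coding start. The upstream sequences are shown because the 2 paralogues differ in where the mark lies relative to them. CpG dinucleotides are in capitals here and in the promoter sequences that follow, which come from the RefSeq promoter table of GRCm38.p6 and end before the first annotated exon. The table matched 7 of the 8 genes, all but Igf2bp1.
Lin28a promoter, chr4:134018842-134019066, minus strand: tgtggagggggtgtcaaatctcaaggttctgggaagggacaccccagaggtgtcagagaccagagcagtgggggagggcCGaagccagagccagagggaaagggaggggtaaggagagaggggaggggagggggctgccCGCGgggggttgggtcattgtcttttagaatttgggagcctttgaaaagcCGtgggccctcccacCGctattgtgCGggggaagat
Lin28b promoter, chr10:45470202-45470451, minus strand: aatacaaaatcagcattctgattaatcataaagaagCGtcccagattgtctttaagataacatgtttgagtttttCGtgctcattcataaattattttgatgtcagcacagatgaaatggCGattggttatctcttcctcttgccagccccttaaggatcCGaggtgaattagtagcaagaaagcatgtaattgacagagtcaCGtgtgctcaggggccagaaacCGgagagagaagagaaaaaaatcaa
Lin28b upstream peak, central 300 bases, chr10:45486781-45487080, minus strand: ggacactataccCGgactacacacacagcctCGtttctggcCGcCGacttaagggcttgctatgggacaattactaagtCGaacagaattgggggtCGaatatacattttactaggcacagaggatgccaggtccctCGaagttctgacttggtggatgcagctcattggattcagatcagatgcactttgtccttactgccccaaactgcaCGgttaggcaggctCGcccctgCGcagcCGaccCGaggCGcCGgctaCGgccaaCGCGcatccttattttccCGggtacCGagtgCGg
The Lin28a promoter held 6 CpG in 225 bases, 89 of them under the peak, and the coding promoter of Lin28b held 6 in 250, with no base under a peak. The median over 32851 promoters of the table was 6 per 250 bases. The narrow upstream peak of Lin28b held 20 CpG in its central 300 bases.

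Igf2bp1, Igf2bp2 and Igf2bp3 encode paralogous mRNA-binding proteins, of which IGF2BP1 and IGF2BP3 are the ones largely restricted to embryonic and tumour cells. Igf2bp1 (chr11:95957163-96005940, minus strand) had 7.87% of its window under peaks. Its promoter peak, chr11:96005472-96008064 (2593 bp), spanned the start and extended to 2124 bp upstream, over the noncoding genes Gm29202 and Gm37179. Intron 2 held the 4388 bp peak, chr11:95979484-95983871, and a second of 1025 bp at chr11:95989996-95991020. The midpoint of the wide one lay 24263 bp downstream of the principal start and 917 bp from the start of a short noncoding transcript of the gene. The 554 bp peak at Snf8 was the fourth.

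Igf2bp2 (chr16:22059009-22163299, minus strand, 104291 bp) had narrow peaks. Of its window 0.791% was covered, and 53.3% of protein-coding genes had less. The promoter peak, chr16:22163462-22164187 (726 bp), stopped 163 bp short of the start. The other, chr16:22121051-22121623 (573 bp), sat in intron 2, 63 bp upstream of the start of a noncoding transcript. Igf2bp3 (chr6:49085223-49214957, minus strand, 129735 bp) had the widest peak of the 8 genes, chr6:49212881-49218971 (6091 bp), wider than 99.4% of all peaks. It reached from 4014 bp upstream of the start into the gene. No other peak touched its body, and the second peak of the window was the 799 bp one at Malsu1. The promoters of Igf2bp2 and Igf2bp3 are shown because both were rich in CpG while one peak stopped short of the start and the other covered it.
Igf2bp2 promoter, chr16:22163300-22163549, minus strand: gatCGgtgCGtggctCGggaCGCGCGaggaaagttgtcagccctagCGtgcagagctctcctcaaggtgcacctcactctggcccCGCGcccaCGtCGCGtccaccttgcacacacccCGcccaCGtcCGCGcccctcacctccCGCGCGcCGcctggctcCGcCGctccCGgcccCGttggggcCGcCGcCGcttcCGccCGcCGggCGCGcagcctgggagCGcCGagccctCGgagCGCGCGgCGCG
Igf2bp3 promoter, chr6:49214958-49215204, minus strand: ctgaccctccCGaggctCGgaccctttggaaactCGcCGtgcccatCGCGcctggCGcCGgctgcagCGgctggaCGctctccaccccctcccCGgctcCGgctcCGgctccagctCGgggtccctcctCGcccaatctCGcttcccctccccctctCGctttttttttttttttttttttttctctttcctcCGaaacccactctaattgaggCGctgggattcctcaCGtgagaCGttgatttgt
The Igf2bp2 promoter held 40 CpG, with 88 of its 250 bases under the peak. The Igf2bp3 promoter held 21, and all 247 bases shown were under the peak.

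Trim71 (chr9:114507133-114564369, minus strand, 57237 bp) had the most peaks, the highest density and the largest covered share of the 8 genes. Its 10 peaks summed to 16464 bp, 14.0% of the window, and 98.8% of protein-coding genes had less of theirs covered. Including Trim71, 12 of 21938 genes (0.0547%) had at least 10 peaks in the window, and 20 had at least as many as its 7 on the gene body. Intron 1, 37183 bp long, contained 6 of them with a summed width of 13141 bp, so that 35.3% of the intron was under peaks. The widest were chr9:114525712-114530587 (4876 bp) and chr9:114545541-114550345 (4805 bp), whose midpoints were 36220 and 16426 bp downstream of the only annotated start and which lay 14953 bp apart. The other peaks of intron 1 were 552, 480, 467 and 1961 bp wide, with midpoints 30537, 8830, 7299 and 3468 bp downstream.

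The promoter peak of Trim71 was small in comparison. At chr9:114563796-114564366 it was 571 bp wide, lay in exon 1 and ended 3 bp downstream of the start, with a GC content of 64.6%, the highest of the 29. Outside the gene, a 1509 bp peak (chr9:114583787-114585295) lay 20172 bp upstream, and peaks of 454 and 789 bp lay in Ccr4, a chemokine receptor gene beyond the 3′ end. The 2 farthest peaks of intron 1 were nearer to the start of C130032M10Rik than to that of Trim71. The upstream sequence of Trim71 and the middle of its widest peak are shown because they differ in CpG. The 250 bases before the start are CpG-rich and hold no peak base, since the promoter peak lies just downstream of the start. The wide peaks of the intron are CpG-poor.
Trim71 promoter, chr9:114564370-114564619, minus strand: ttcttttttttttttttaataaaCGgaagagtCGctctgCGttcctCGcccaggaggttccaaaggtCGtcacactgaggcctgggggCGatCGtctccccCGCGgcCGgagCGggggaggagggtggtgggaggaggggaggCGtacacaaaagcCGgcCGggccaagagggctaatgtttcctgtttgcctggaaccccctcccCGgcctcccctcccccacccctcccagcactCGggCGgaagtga
Trim71 widest intron 1 peak, central 300 bases, chr9:114528000-114528299, minus strand: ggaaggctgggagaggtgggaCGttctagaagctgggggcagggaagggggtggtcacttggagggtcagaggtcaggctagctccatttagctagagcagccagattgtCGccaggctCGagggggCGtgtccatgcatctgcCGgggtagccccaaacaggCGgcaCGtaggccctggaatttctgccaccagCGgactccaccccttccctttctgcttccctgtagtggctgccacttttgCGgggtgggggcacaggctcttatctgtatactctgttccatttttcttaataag
The promoter held 17 CpG in 250 bases and the intronic centre 9 in 300. Over the whole intronic peaks the CpG ratio was 0.314 for the 4876 bp peak and 0.238 for the 4805 bp peak, whereas it was 1.11 in the promoter peak. Between 11 and 31.7% of the bases of the intron 1 peaks were repeat-masked, compared with a median of 9.84% over all peaks and 10.5% over the 29.

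Hmga1 and Hmga2, which encode DNA-bending proteins of one family, lay at opposite ends. Hmga1 (chr17:27556497-27563674, plus strand, 7178 bp) had 12.8% of its window under peaks. A single peak of 5970 bp, chr17:27553662-27559631, covered all 14 of its annotated starts and had its midpoint 5 bp from the closest of them. Upstream lay peaks of 281 and 585 bp, with midpoints 13160 and 5093 bp from the first start, the wider of them in the noncoding gene Gm49774. A 792 bp peak sat in intron 4 and a 990 bp peak at AI413582, beyond the 3′ end.

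Hmga2 (chr10:120361275-120476469, minus strand, 115195 bp) had 1 peak, chr10:120428297-120428840, which was 544 bp wide, wider than 22.6% of all peaks. It lay in intron 3, 47629 bp from the start at its closest base. Upstream of the start the next midpoint was 502767 bp away. The CpG ratio of the promoter was 0.695, above the limit of 0.6, so Hmga2 was among the CpG-rich genes without a promoter peak. For a gene of this length few peaks were common: of 2492 protein-coding genes of at least 100 kb, 1831 (73.5%) had 1 or none in the window. Hmga2, Lin28b, Igf2bp2 and Igf2bp3 are the 4 genes of that length here. The Hmga sequences are shown because one promoter was covered and the other was not, and the last is the middle of the only Hmga2 peak.
Hmga1 promoter, chr17:27556324-27556496, plus strand: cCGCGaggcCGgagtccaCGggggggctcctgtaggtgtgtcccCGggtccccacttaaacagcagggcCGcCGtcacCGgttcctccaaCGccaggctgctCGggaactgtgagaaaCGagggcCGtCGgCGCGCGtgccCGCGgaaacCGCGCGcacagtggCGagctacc
Hmga2 promoter, chr10:120476470-120476719, minus strand: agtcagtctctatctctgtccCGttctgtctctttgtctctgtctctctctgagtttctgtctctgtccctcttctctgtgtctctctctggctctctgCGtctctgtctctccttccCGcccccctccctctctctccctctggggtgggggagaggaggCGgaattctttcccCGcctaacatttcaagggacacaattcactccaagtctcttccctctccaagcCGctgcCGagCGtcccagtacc
Hmga2 intron 3 peak, central 300 bases, chr10:120428419-120428718, minus strand: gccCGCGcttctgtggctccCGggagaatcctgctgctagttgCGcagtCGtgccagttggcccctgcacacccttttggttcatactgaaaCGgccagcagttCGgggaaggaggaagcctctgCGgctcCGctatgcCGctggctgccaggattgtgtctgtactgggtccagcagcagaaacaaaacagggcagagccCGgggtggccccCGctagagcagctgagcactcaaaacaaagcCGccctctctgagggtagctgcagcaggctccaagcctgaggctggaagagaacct
The Hmga1 promoter held 22 CpG in the 173 bases shown, and the Hmga2 promoter held 8 in 250. The centre of the intron 3 peak held 13 in 300 bases, and the GC content of that peak was 58.3%.

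Over the 29 peaks the GC content averaged 53.2% ± 4.93 (SD across peaks, n = 29), and it was 51.4% ± 5.61 over all peaks. It ran from 42.0% in the exon 2 peak of Lin28b to 64.6% in the promoter peak of Trim71. Midpoints lay in an intron of the principal transcript for 13 peaks, of which 11 were in intron 1 or 2. Intron 1 of Trim71 alone held 6 of them. The share over all peaks is not given, so the count is not read as a trait of the 8 genes. Farther than 3 kb from every protein-coding TSS lay 13 of 29 peaks (44.8%, Wilson interval 28.4 to 62.5%), against 30.5% of the whole set. Trim71 supplied 8 of these 13, Hmga1 3, and Igf2bp1 and Hmga2 1 each, so the share reflects Trim71 above all.

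Binding motifs of factors active in mESCs were searched in the central 400 bp of each peak, on both strands. A match describes letters in the reference and is not evidence of a bound factor. At least 1 of 8 motifs was found in 13 of 29 peaks (44.8%, Wilson interval 28.4 to 62.5%), close to the 46.1% of all peaks. The KLF motif GGGNGTGG was in 4 peaks (13.8%, against 16.9% of all peaks), all in the Trim71 window. The E-box CACGTG, bound by MYC among others, was in 3 peaks (10.3%, against 9.09%), also in the Trim71 window. The SOX core CATTGT was in 3 (10.3%, against 13.2%), and the AP-1 motif TGANTCA in 2 (6.90%, against 9.19%), at Igf2bp1 and Igf2bp2. The octamer ATTTGCAT of POU5F1 was in 1 (3.45%, against 1.52%). No central window held the motifs TCAAGGTCA of ESRRB (1.01% of all peaks), TTCCNGGAA of STAT3 (1.65%) or CTTTGAT of TCF factors (4.70%), and a count of 0 among 29 allows a share of up to 10.3%. All 8 background shares therefore lay within the interval of the 29 peaks.

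Because broad peaks reach far beyond 400 bp, the octamer and the ESRRB motif were also searched along whole peaks, a choice made after the central windows were seen. The octamer then occurred in 4 of the 29 peaks, against 5.12% of all peaks, and the ESRRB motif in 2, against 3.61%. The 4 peaks were the promoter peaks of Lin28a, Igf2bp3 and Hmga1 and the 4805 bp intron 1 peak of Trim71. All were among the 8 of the 29 peaks that reached 2 kb, and of all peaks that wide 11.8% held an octamer. The matches are shown with the motif in capitals and 11 bases on either side. The AP-1 matches of Igf2bp1 and Igf2bp2 follow, because the latter sits in the only intragenic peak of Igf2bp2.
Lin28a octamer, chr4:134016542-134016571, minus strand: ccccccatctcATTTGCATatgtgaatgat
Igf2bp3 octamer, chr6:49216332-49216361, plus strand: agatctagagtATTTGCATtttgtctttaa
Trim71 octamer, chr9:114549335-114549364, plus strand: gtgccctggccATTTGCATtgtggcccaga
Hmga1 octamer, chr17:27556539-27556568, plus strand: tccccgggctcATTTGCATggccccgcccc
Trim71 ESRRB motif, chr9:114547032-114547062, plus strand: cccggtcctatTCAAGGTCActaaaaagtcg
Hmga1 ESRRB motif, chr17:27559428-27559458, plus strand: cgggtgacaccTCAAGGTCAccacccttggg
Igf2bp1 AP-1 motif, chr11:96006565-96006593, plus strand: ctcccgggtccTGATTCAggggaccctga
Igf2bp2 AP-1 motif, chr16:22121338-22121366, plus strand: aagtggttcgcTGAGTCAttccattctat
The Hmga1 octamer lay 54 bp upstream of the principal start and 92 bp from the middle of its peak. In Trim71 the octamer overlapped a SOX core by 3 bases, and the ESRRB match lay in the same peak. The other octamers were 1386 bp upstream of the start at Igf2bp3 and 2288 bp downstream of it at Lin28a.

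The 8 genes are tied to let-7 through their 3′UTRs, which the choice of the genes already reflects, so the counts that follow are a description. Of 11 mouse let-7 family sequences listed by RefSeq, 10 shared the seed GAGGUAG (bases 2 to 8), and let-7j had GAGGUAU. Members with different bodies are shown with the seed in capitals.
let-7a-5p: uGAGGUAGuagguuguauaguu
let-7g-5p: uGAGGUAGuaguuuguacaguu
miR-98-5p: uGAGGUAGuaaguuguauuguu
let-7j: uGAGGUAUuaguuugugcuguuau
The 8-base match CTACCTCA, the complement of the common seed followed by A, occurred in the 3′UTR of the principal transcript of 7 of the 8 genes. It occurred in 2.76% of 20737 protein-coding genes with an annotated 3′UTR, and in 5.38% of those whose 3′UTR was at least as long as that of Hmga1, the shortest here at 1178 bases. Trim71 had 4 matches in 5512 bases, Igf2bp1 3 in 6337 and Lin28a 2 in 2775. Lin28b, Igf2bp2, Igf2bp3 and Hmga2 had 1 each. Only 6 genes (0.0289%) had at least 3, among them Trim71 and Igf2bp1. Hmga1 had none of 8 bases and 1 of 7. Counting matches of 7 bases, Lin28b and Hmga2 had 4 each. The first match of each gene is shown with the 8 bases in capitals, in the sense of the mRNA.
Lin28a 3′UTR, match at chr4:134005189-134005196, minus strand: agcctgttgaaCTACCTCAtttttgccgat
Lin28b 3′UTR, match at chr10:45381022-45381029, minus strand: gggcgggaagtCTACCTCAtgcaagcacag
Igf2bp1 3′UTR, match at chr11:95961778-95961785, minus strand: tgcgaagtaaaCTACCTCAaggtgtgaagt
Igf2bp2 3′UTR, match at chr16:22059473-22059480, minus strand: acaaataaaagCTACCTCAggtgtttttta
Igf2bp3 3′UTR, match at chr6:49086787-49086794, minus strand: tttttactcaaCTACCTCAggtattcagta
Trim71 3′UTR, match at chr9:114512472-114512479, minus strand: ttgcctaagtcCTACCTCAgcttaaatttt
Hmga2 3′UTR, match at chr10:120364224-120364231, minus strand: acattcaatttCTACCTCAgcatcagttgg
The matches of Lin28b and Hmga2 lay early, 36 and 21 bases after the stop codon.

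**Figure D5:**
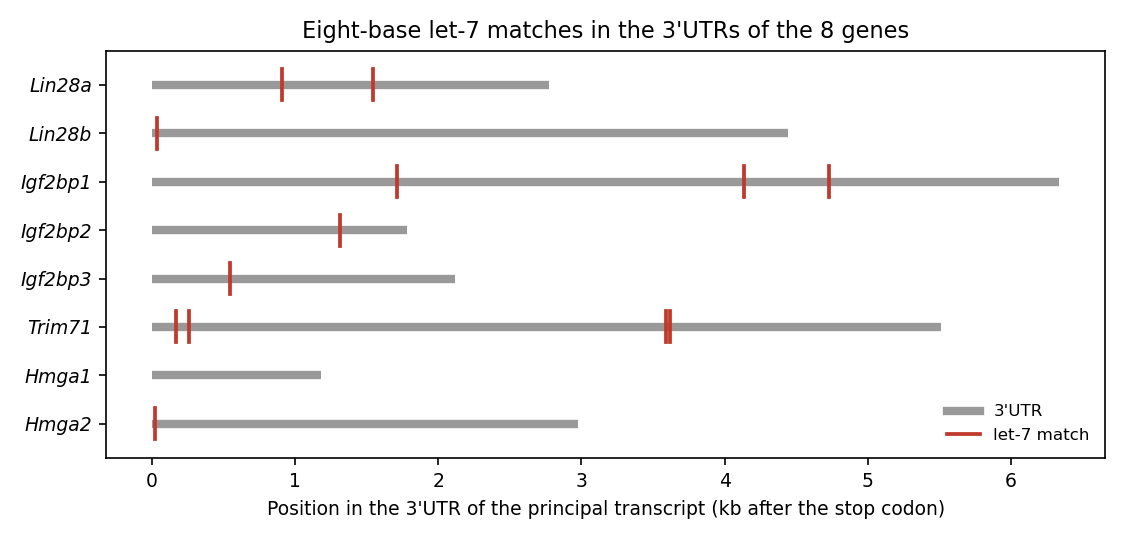
The 3′UTR of the principal transcript of each gene as a grey bar, in kb after the stop codon (x axis), with a red tick at each of the 13 8-base let-7 matches. Trim71 carries 4 ticks, Igf2bp1 3, Lin28a 2 and Hmga1 none.

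Genes around the LIN28/let-7 axis were counted in the same way. Of 10 genes that process or degrade let-7, 8 had a promoter peak by midpoint, against 33.9% of protein-coding genes, or 57.6% of those with CpG-rich promoters. They included Drosha and Dgcr8, which cut the primary transcript, Dicer1, which cuts the precursor, Tut4 and Tut7, which uridylate precursors bound by LIN28, and Dis3l2, which degrades these. The other 2 were Ago2, the microRNA-bound effector, whose 2607 bp peak had its midpoint 1797 bp from a start, and Tarbp2, a DICER1 partner, 7945 bp from the nearest midpoint. The widest peak in any window of the list, 3623 bp, lay in that of Dgcr8, whose own promoter peak was 1391 bp wide.

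Of 18 further let-7 targets 9 had a promoter peak, a share between the 33.9% of all protein-coding genes and the 57.6% of those with CpG-rich promoters. The widest peak was that of the transcription factor Mycn with 6394 bp. The window count of the list had a median of 1.5 peaks, compared with 2.50 for the 8 genes. None of the 4 genes of the IGF2 axis had a peak in its window, which was also true of 9477 of the 21938 protein-coding genes. The nearest midpoint was 42918 bp from H19, 119410 bp from Igf2, the growth factor whose mRNA gave the IGF2BP family its name, 139927 bp from its receptor Igf2r and 285608 bp from Igf1. The 12 let-7 genes are annotated by their hairpins rather than by the start of the primary transcript, so a promoter peak cannot be assigned. A peak lay within 30 kb of 6 of them, and these include the neighbours Mirlet7a-1, Mirlet7d and Mirlet7f-1 with the same peaks. The widest was 2340 bp, near Mirlet7g. For protein-coding genes the share was 56.8%, but their windows also hold a whole gene body, so the shares are not alike.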

How the data were processed

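H3K56ac ChIP-seq and input libraries of Scramble and Sirt6 KD mESCs were made by the authors, who aligned reads to mm10 with bowtie, keeping reads with 1 reportable location, called peaks with MACS2, removed blacklisted regions and merged overlapping peaks. The deposited file gives chromosome, start and end of 11106 merged peaks (unit: positions) and no count, and its name, score and strand fields were constant. The study lists the reads of each library, but the read depth at each peak is unknown. Keeping uniquely placed reads can leave repeats empty, and merging can widen peaks. The smallest gap between peaks was 1000 bp, so peaks closer than that appear to have been joined, not only overlapping ones. A wide peak may therefore hold several narrower ones, which the positions cannot tell apart.

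Printed positions count from 1. No peak ran past a chromosome end of GRCm38, the assembly of mm10. Genes came from GENCODE M21. The principal transcript was the one ranked first by APPRIS, or the longest of equal rank, and TSS were the starts of all transcripts. All peaks at the 8 genes are described, in pathway lists the gene with the widest peak and, where 5 or fewer, those without a promoter peak. Genes and lists were chosen with earlier results of these data known. Calculations used Python 3.11.15, numpy 2.4.6 and scipy 1.17.1. The motif search, the exon and intron numbers and the CpG and GC formulas were tested on constructed data. Alternatives covered window, start set, distance, motif window and let-7 match.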

Additional observations from a re-analysis of the deposited data

How the results depend on the processing

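Of 27 alternatives to the 9 main values 20 stayed within the error or within 1.5 times. The median width of 792.0 bp lay below the 913.5 bp of all peaks, but it was 1542 bp for gene bodies alone. For peaks nearest to the gene's own TSS it was 1074 bp. Both values lay above that of all peaks, although inside the interval of 571 to 1961 bp. The 913.5 bp cover peaks at any position, and no median of peaks chosen in the same way over all genes is given. The number of peaks, 29, was 18 for gene bodies alone and 44 with 100 kb on either side. The 7 genes with a promoter peak became 4 with a limit of 500 bp (Lin28a, Igf2bp2, Trim71 and Hmga1), and 4 where the principal start had to lie under a peak, a setting chosen after seeing the data. At 500 bp Lin28a and Igf2bp2 passed only through starts inside the gene, 139 and 63 bp from a midpoint. The midpoints nearest to their principal starts were 1323 and 525 bp away. Lin28b kept a promoter peak neither with coding nor with basic transcripts, and Lin28a lost it with basic ones. The distal share of 44.8% was 20.7% with a limit of 10 kb. The 13 peaks with a motif became 6 in the central 200 bp and 22 in the central 1000 bp, and 10 of 16 alternatives for single motifs changed by more than 1.5 times, from counts of up to 4. For the 500 bp limit, the 10 kb limit and the other motif windows no share over all genes or peaks is given. These values can therefore not be set against the backgrounds of the main settings. No paired analysis was possible because all libraries were joined in 1 list of positions. Without counts, heights or groups, neither weak peaks nor an effect of Sirt6 KD can be told.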
